A study of Mus musculus with 12 samples.

Results

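The genes described here are 9 lymphocyte markers, Cd3e, Cd3d, Cd4, Cd8a, Cd79a, Ms4a1, Ptprc, Nkg7 and Il7r, and the measurement is the accessibility of their promoters in whole liver. They were taken from a promoter table by symbol, and a gene with several promoter rows was represented by the row of highest mean CPM, the count scaled to a common library size. All 9 were found, among 25124 symbols on 43511 rows, and all 9 passed the filter on low counts. For Il7r and Cd8a the 2 rows held identical counts, and for Ptprc 2 of 3 rows were distinct.

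T cells recognise antigen through a receptor whose signal is carried into the cell by the CD3 chains, among them CD3 epsilon (Cd3e) and CD3 delta (Cd3d). CD4 and CD8 alpha are the coreceptors that mark helper and cytotoxic T cells, and the IL-7 receptor alpha chain (Il7r) carries a survival signal for naive and memory T cells and innate lymphoid cells. CD79a is the signalling chain of the B cell receptor, Ms4a1 encodes the B cell surface protein CD20, Nkg7 encodes a granule protein of natural killer (NK) and cytotoxic T cells, and Ptprc encodes CD45, a phosphatase on nearly all blood leukocytes. Liver holds resident and circulating T, B and NK cells in its sinusoids, but hepatocytes supply most of its tissue mass.

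Livers were taken from wild-type C57BL/6N males, 19 to 20 weeks old, that were kept on chow and fasted for 12 h at the end. Over 4 days they were given by gavage either distilled water (control), atorvastatin at 10 mg/kg, a statin that lowers cholesterol, or pregnenolone 16α-carbonitrile (PCN) at 100 mg/kg, which activates the pregnane X receptor of mice. ATAC-seq, in which a transposase inserts into open DNA, was run on nuclei of whole liver with no sorting step in the labels, and each of the 3 groups had 4 libraries. The labels do not say whether a library is 1 mouse, so p-values measure only the spread between these libraries, which may be in part technical.

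Promoter totals ran from 1.68e+06 counts in control 4 to 1.53e+07 in atorvastatin 2, and the 9 markers together held 42 counts in control 4 and 774 in atorvastatin 3. Control 3 and atorvastatin 3 stood apart, with median correlations to the other libraries of 0.70 and 0.74 across promoters, where control 4 had 0.90 and the other 9 had 0.95 to 0.97. The main fold changes are also given without those 2 libraries, a choice made after the data were seen. The 14 promoters of a hepatocyte list had a median of 18.9 to 49.9 CPM per library, above the median of all symbols in each of the 12. In control 3 it was 18.9 CPM beside 13.96 CPM for all symbols. Promoters outside the list also reach such levels, so the identity of the tissue was not tested by them.

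Reference promoter windows of 4 markers are shown. Cd79a had the highest mean count, Nkg7 the second, Il7r the widest spread, and Cd3e 0 counts in 1 library. Each window is the RefSeq reference of build GRCm38.p6, from 250 bases before to 50 after an annotated start. It is printed 5′ to 3′ on the gene's strand. The authors' promoter window is not given in the sources used here, so the bases counted below may differ from these. Capitals mark the ETS core (CAGGAAG, on either strand) and, in Il7r, also the RUNX letters (TGTGGTT). ETS and RUNX proteins are transcription factor families with broad roles in blood cells. Cd79a lies on the plus strand at chr7:24897247-24897546, Nkg7 on the plus strand at chr7:43436888-43437187, Cd3e on the minus strand at chr9:45009562-45009861 and Il7r on the minus strand at chr15:9529827-9530126.
Cd79a: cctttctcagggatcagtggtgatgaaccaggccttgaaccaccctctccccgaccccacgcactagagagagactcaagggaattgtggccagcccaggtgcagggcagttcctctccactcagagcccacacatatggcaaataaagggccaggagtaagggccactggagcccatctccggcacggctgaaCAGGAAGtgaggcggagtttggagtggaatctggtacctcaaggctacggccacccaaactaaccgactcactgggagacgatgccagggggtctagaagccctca
Nkg7: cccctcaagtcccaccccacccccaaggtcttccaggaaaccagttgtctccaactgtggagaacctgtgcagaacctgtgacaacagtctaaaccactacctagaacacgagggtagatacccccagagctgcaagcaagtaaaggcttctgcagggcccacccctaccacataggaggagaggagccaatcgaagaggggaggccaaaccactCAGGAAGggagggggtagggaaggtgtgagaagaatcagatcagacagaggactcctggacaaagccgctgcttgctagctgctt
Cd3e: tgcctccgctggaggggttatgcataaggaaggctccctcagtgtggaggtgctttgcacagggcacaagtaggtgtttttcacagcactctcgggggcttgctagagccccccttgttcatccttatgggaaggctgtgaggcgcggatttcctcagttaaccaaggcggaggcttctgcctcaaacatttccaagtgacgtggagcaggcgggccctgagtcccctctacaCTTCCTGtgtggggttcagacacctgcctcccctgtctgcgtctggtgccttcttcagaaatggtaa
Il7r: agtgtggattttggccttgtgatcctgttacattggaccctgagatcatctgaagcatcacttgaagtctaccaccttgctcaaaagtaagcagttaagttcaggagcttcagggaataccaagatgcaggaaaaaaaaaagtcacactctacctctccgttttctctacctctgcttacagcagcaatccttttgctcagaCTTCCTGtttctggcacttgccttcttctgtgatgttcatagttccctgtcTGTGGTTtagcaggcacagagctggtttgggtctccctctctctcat

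The reference table held 8 windows for 7 of the 9 genes. The ETS core was found in the windows of Cd79a, Nkg7, Cd3e and Il7r. It was also in both windows of Ptprc, which overlap and share the same site. Of all 32851 windows of this length, 13.3% hold the core on either strand. The core began 56 bases before the start in Cd79a, 35 in Nkg7, 17 in Cd3e and 48 in Il7r. The RUNX letters stood in Il7r alone (5.27% of windows), an E-box (CAGCTG) in Cd8a and 1 Ptprc window (16.3%), and a TATA box (TATAAA) in the other Ptprc window (13.6%). Cd3d held none of the 6 motifs searched, which also included the octamer (ATGCAAA, 4.63%) and the GC box (GGGCGG, 35.7%), found in no marker window. These are matches of letters only.

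CpG is the dinucleotide that is dense in many housekeeping promoters. The 8 marker windows held 1 to 8 CpG with a median of 3, where the median of all windows was 7, and the windows of Cd79a and Cd3e, with 8 each, were above that median. Among 18397 symbols matched to windows, the median level was 3.97 CPM with 0 to 3 CpG, 15.3 CPM with over 7 to 15, and 31.4 CPM with over 15. Nkg7 with 3 CpG stood at 6.48 CPM, above the upper quartile of 6.20 CPM for 0 to 3 CpG, while Cd3e with 8 CpG stood at 4.75 CPM, under the lower quartile of 7.17 CPM for its class. All other markers with a window lay between the quartiles of their class.

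**Figure D1:**
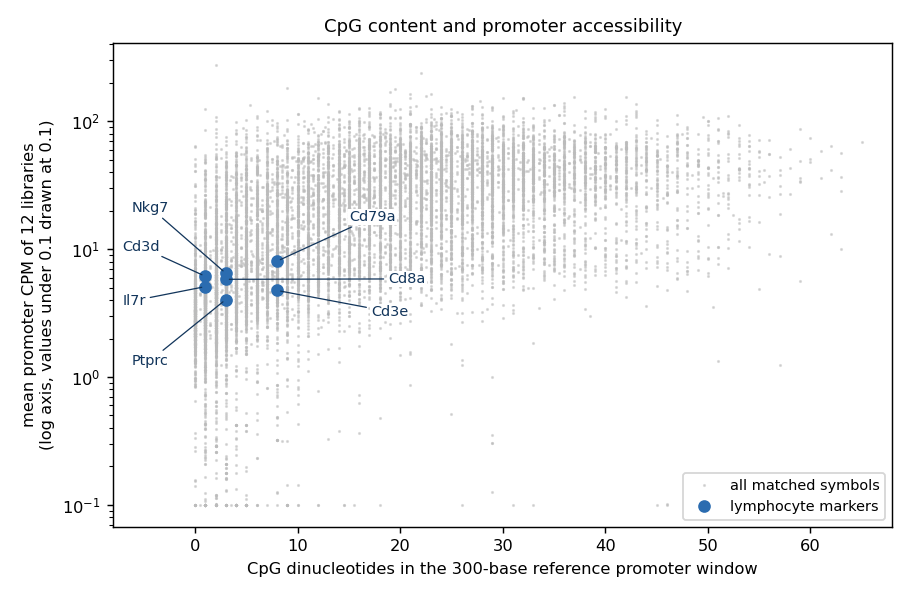
Mean promoter CPM of the 12 libraries (log axis) against the number of CpG in the reference window (mean over a gene's windows). Grey points are all matched symbols and blue points the 7 lymphocyte markers with a window, which lie at 1 to 8 CpG and between 4.03 and 8.06 CPM.

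The marker promoters lay low in the range of the liver libraries. By mean over the 12 libraries, 7 of the 9 lay above the range in which most promoters of a silent gene family fell. Levels are CPM scaled by TMM, and the length of the authors' promoter window is not given in the sources used here, so an order between genes holds only if their windows are equally long. The median over the 9 genes was 5.81 CPM, beside 12.7 CPM for all symbols. Promoters of 1132 olfactory receptor genes, which are silent in liver, served as a measure of background and had a median of 2.88 CPM, with 10th and 90th percentiles of 1.89 and 4.65 CPM. This set was chosen after the data were seen.

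Cd79a was the highest at 8.06 ± 3.89 CPM (mean ± SD, n = 12), at percentile 38.8 of all symbols. Nkg7 followed at 6.48 ± 2.62, Cd3d at 6.14 ± 3.75, Cd4 at 5.83 ± 2.33 and Cd8a at 5.81 ± 3.94 CPM. Il7r stood at 5.09 ± 5.64, Cd3e at 4.75 ± 3.08, Ptprc at 4.03 ± 1.40 and Ms4a1, the lowest, at 3.47 ± 1.92 CPM. No step between neighbours in this order, 0.020 to 1.58 CPM, exceeded the SD of either neighbour. That SD is a spread between libraries that all the genes share, so it does not test the order within libraries. By mean level, Cd79a exceeded 99.8% of the olfactory receptor promoters and Il7r 93.5%, while Ptprc and Ms4a1, above 81.9% and 68.7%, lay inside their 10th to 90th percentile range. In single libraries, 96 of 108 marker values were above that library's olfactory receptor median. The Il7r mean included 19.1 CPM in control 3 and 13.4 CPM in atorvastatin 3. In control 4, atorvastatin 4, PCN 2 and PCN 4, Il7r was at 0.667, 0.818, 0.889 and 0.222 times the library's olfactory receptor median.

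The extremes of the markers and of the background set fell in the same libraries. The markers' mean was lowest in atorvastatin 2 at 2.44 CPM and highest in atorvastatin 3 at 9.71 CPM, a 3.98-fold range, and the olfactory receptor mean was lowest and highest in the same libraries at 1.33 and 7.12 CPM. The ratio of these means ran only from 1.36 to 2.33. Control 3 had the highest ratio of both means and medians, the latter 3.8 against 1.48 to 2.33 in the other 11 libraries, and 34.1% of olfactory receptor promoters were at 0 there, 18.6% in control 4 and 0.177% to 1.94% elsewhere. The part of background in the differences between groups was not tested beyond the rescaled values below.

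**Figure D2:**
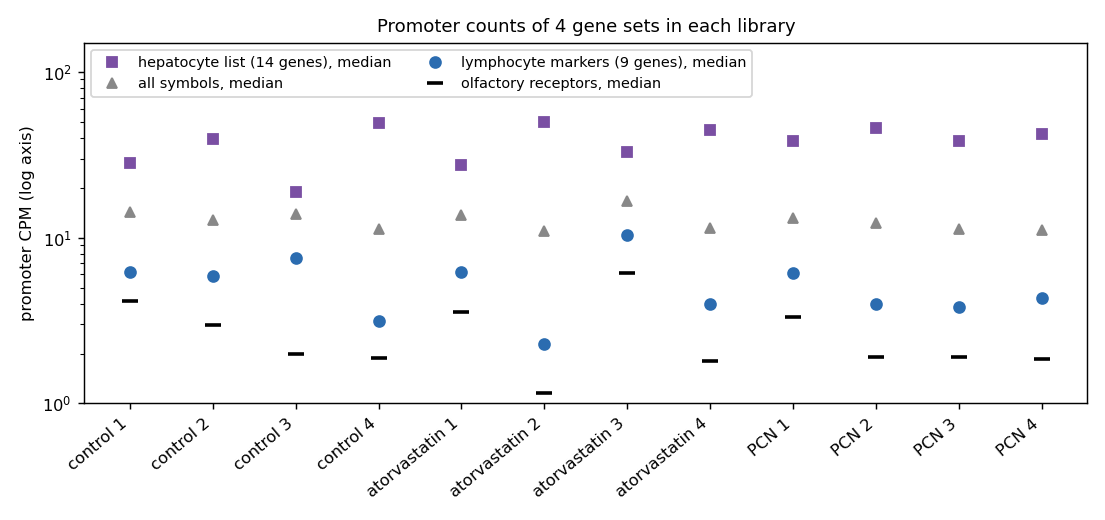
Median promoter CPM (log axis) of the 9 lymphocyte markers, 1132 olfactory receptors, 14 hepatocyte genes and all symbols in each of the 12 libraries. The marker median is above the olfactory receptor median and below the median of all symbols in each library.

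No marker promoter passed the test in any of the 3 comparisons, and the intervals are wide. With PCN against control, 0 of 9 were called at an adjusted p of 0.05 by edgeR's quasi-likelihood test (background 0%), and 0 of 9 had an unadjusted p under 0.05 (background 3.75% of 41908 promoters). The same counts were 0 and 0 for atorvastatin against control (background 0% and 1.93%) and for PCN against atorvastatin (background 0% and 0.73%). In no marker did the libraries of 1 group lie all above or all below those of another, which 1.52% of promoters did with PCN below control and 2.07% with PCN above it. The same shares were 0.444% and 0.525% for atorvastatin against control and 0.21% and 0.296% for PCN against atorvastatin. The 95% intervals reached 1.01 to 1.69 on the log2 scale to each side, or 2.02-fold to 3.22-fold either way around the estimates. They reflect the spread between libraries. In bulk tissue, fewer lymphocytes and less open chromatin per lymphocyte cannot be told apart.

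Below, values are given for replicates 1 to 4 of each group in turn, and fold changes are edgeR's log2 values from all 12 libraries unless said otherwise. The receptor chains come first. Cd3e stood at 6.17, 6.99, 0 and 2.51 CPM in control, at 4.20, 2.75, 12.5 and 3.51 CPM with atorvastatin and at 6.15, 4.32, 3.59 and 4.35 CPM with PCN. The 0 in control 3 would allow up to 1.20 CPM (3 counts) if counting error were the only source of error. In that library 34.1% of olfactory receptor promoters were also at 0, although the set's mean was 9.80 counts. The limit on Cd3e may therefore be higher. The highest value, in atorvastatin 3, is far above the other 3 of its group. The Cd3e log2 fold change was 0.14 ± 0.72 (SE) for PCN and 0.46 ± 0.72 for atorvastatin against control, and both were below 0 without the 2 libraries, at -0.26 ± 0.52 and -0.68 ± 0.56.

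Cd3d, whose gene lies next to Cd3e on chromosome 9, stood at 5.02, 6.06, 12.8 and 3.77 CPM in control, at 6.19, 1.84, 14.6 and 3.59 CPM with atorvastatin and at 5.75, 5.58, 3.81 and 4.76 CPM with PCN. In control 3, where Cd3e was at 0, Cd3d was at its second highest value. The Cd3d log2 fold change was -0.48 ± 0.61 for PCN and -0.08 ± 0.60 for atorvastatin, and -0.04 ± 0.52 and -0.44 ± 0.56 without the 2 libraries.

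Of the coreceptors, Cd4 stood at 6.42, 5.90, 7.58 and 3.14 CPM in control, at 9.07, 3.22, 10.2 and 4.00 CPM with atorvastatin and at 7.29, 4.00, 3.81 and 5.38 CPM with PCN. It had the narrowest range of the T cell genes, 3.23-fold from lowest to highest, and its 3 groups overlapped throughout. The Cd4 log2 fold change was -0.19 ± 0.55 for PCN and 0.16 ± 0.55 for atorvastatin, and -0.08 ± 0.49 and -0.06 ± 0.52 without the 2 libraries. Cd8a stood at 8.00, 5.90, 15.2 and 2.51 CPM in control, at 4.20, 2.28, 10.7 and 4.32 CPM with atorvastatin and at 7.23, 3.16, 1.91 and 4.35 CPM with PCN. Its highest value was in control 3, and each PCN library was below the control mean of 7.89 CPM. Without control 3 in that mean, 1 of 4 PCN libraries was above it. The Cd8a log2 fold change was -0.92 ± 0.63 for PCN (95% interval -2.22 to 0.38) and -0.56 ± 0.62 for atorvastatin, and -0.47 ± 0.52 and -0.71 ± 0.56 without the 2 libraries.

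Il7r had the largest estimate of the 9 genes, and it rested on control 3. It stood at 5.74, 3.26, 19.1 and 1.26 CPM in control, at 6.19, 1.81, 13.4 and 1.47 CPM with atorvastatin and at 3.59, 1.68, 3.14 and 0.414 CPM with PCN, the last from 2 counts. The other 3 control values, 1.26 to 5.74 CPM, overlap the PCN range. The Il7r log2 fold change for PCN against control was -1.68 ± 0.82 (95% interval -3.36 to 0.01, adjusted p = 0.918), and -0.69 ± 0.62 without the 2 libraries. For PCN against atorvastatin it was -1.31 ± 0.80, and -0.35 ± 0.63 without the 2 libraries. For atorvastatin against control it was -0.37 ± 0.79 and -0.34 ± 0.66.

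Of the B cell genes, Cd79a stood at 11.6, 7.53, 17.5 and 5.03 CPM in control, at 10.2, 3.69, 10.4 and 5.63 CPM with atorvastatin and at 8.31, 6.11, 4.54 and 6.21 CPM with PCN. All 8 treated libraries were below the control mean of 10.4 CPM, but control 4 was below 6 of those 8. That mean included control 3. Without control 3 and atorvastatin 3, 1 of 4 PCN and 1 of 3 atorvastatin libraries were above the control mean. The Cd79a log2 fold change was -0.73 ± 0.50 for PCN and -0.50 ± 0.49 for atorvastatin, and -0.41 ± 0.42 and -0.42 ± 0.45 without the 2 libraries. Ms4a1 stood at 5.66, 5.90, 0 and 1.26 CPM in control, at 3.54, 2.10, 6.32 and 2.28 CPM with atorvastatin and at 4.50, 3.47, 2.86 and 3.72 CPM with PCN. The PCN libraries lay inside the control range, and Ms4a1, like Cd3e, was at 0 in control 3. The Ms4a1 log2 fold change was 0.07 ± 0.75 for PCN and 0.03 ± 0.76 for atorvastatin, and -0.34 ± 0.56 and -0.85 ± 0.61 without the 2 libraries.

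Nkg7 stood at 11.1, 6.37, 5.98 and 3.77 CPM in control, at 7.74, 2.35, 4.85 and 4.97 CPM with atorvastatin and at 11.1, 7.05, 7.18 and 5.38 CPM with PCN. Each of the 4 PCN libraries was above the atorvastatin mean of 4.98 CPM, but their ranges overlap. The Nkg7 log2 fold change for PCN against atorvastatin was 0.66 ± 0.52 (95% interval -0.42 to 1.73), against control 0.15 ± 0.52, and for atorvastatin against control -0.51 ± 0.53. Without the 2 libraries these were 0.70 ± 0.43, 0.05 ± 0.43 and -0.64 ± 0.46. Ptprc, the marker shared by all leukocytes, stood at 5.66, 4.35, 3.99 and 3.14 CPM in control, at 4.20, 1.91, 4.40 and 4.08 CPM with atorvastatin and at 5.69, 4.00, 5.72 and 1.24 CPM with PCN. It varied least relative to its mean, and its group means of 4.28, 3.65 and 4.16 CPM differed by less than the SD within each group. The Ptprc log2 fold change was -0.05 ± 0.62 for PCN and -0.27 ± 0.62 for atorvastatin, and -0.09 ± 0.55 and -0.45 ± 0.59 without the 2 libraries.

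**Figure D3:**
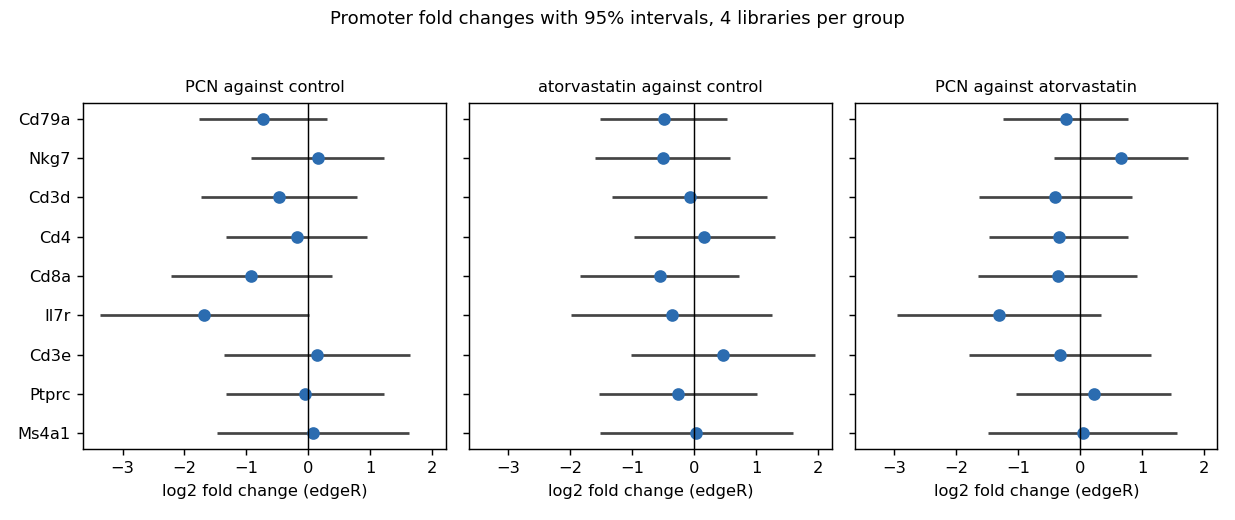
Log2 fold changes of the 9 marker promoters in 3 comparisons, with 95% intervals from edgeR, 4 libraries a group. Every interval includes 0, and Il7r with PCN against control comes nearest to leaving it out.

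As a group, 6 of 9 markers lay below 0 in each comparison, which share their control or treated libraries. The median log2 fold change was -0.19 for PCN against control, where 49% of all promoters lay below 0 and their median was 0.01. It was -0.27 for atorvastatin against control (42.7% of all promoters below 0, median 0.05) and -0.32 for PCN against atorvastatin (52.1%, median -0.02). Without control 3 and atorvastatin 3, 8 of 9 lay below 0 for PCN (median -0.26, all promoters 51.7% below 0), 9 of 9 for atorvastatin (median -0.45, 52.2%) and 2 of 9 for PCN against atorvastatin (median 0.36, 47.2%). None of the markers was called there (background 0.0143%, 0.00954% and 0%), and none had an unadjusted p under 0.05 (background 4.51%, 3.81% and 0.41%). The last of these medians thus turned from negative to positive.

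Scaled to the olfactory receptor promoters instead of by TMM, the median of all promoters moved to 0.44 for PCN and 0.42 for atorvastatin against control. On that scale Cd3d, Cd4 and Ptprc turned to above 0 with PCN, at 0.044, 0.29 and 0.45. The markers' median turned to 0.29 for PCN against control, with 6 of 9 above 0, and to 0.15 for PCN against atorvastatin, and it was -0.19 for atorvastatin against control. Il7r stood at -1.11 ± 0.51 for PCN against control (95% interval -2.10 to -0.11, adjusted p = 0.82), but at -0.23 when the 2 libraries were also left out. Nkg7 for PCN against atorvastatin stood at 0.87 ± 0.44 (adjusted p = 1.00), and at 0.57 without them.

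**Figure D4:**
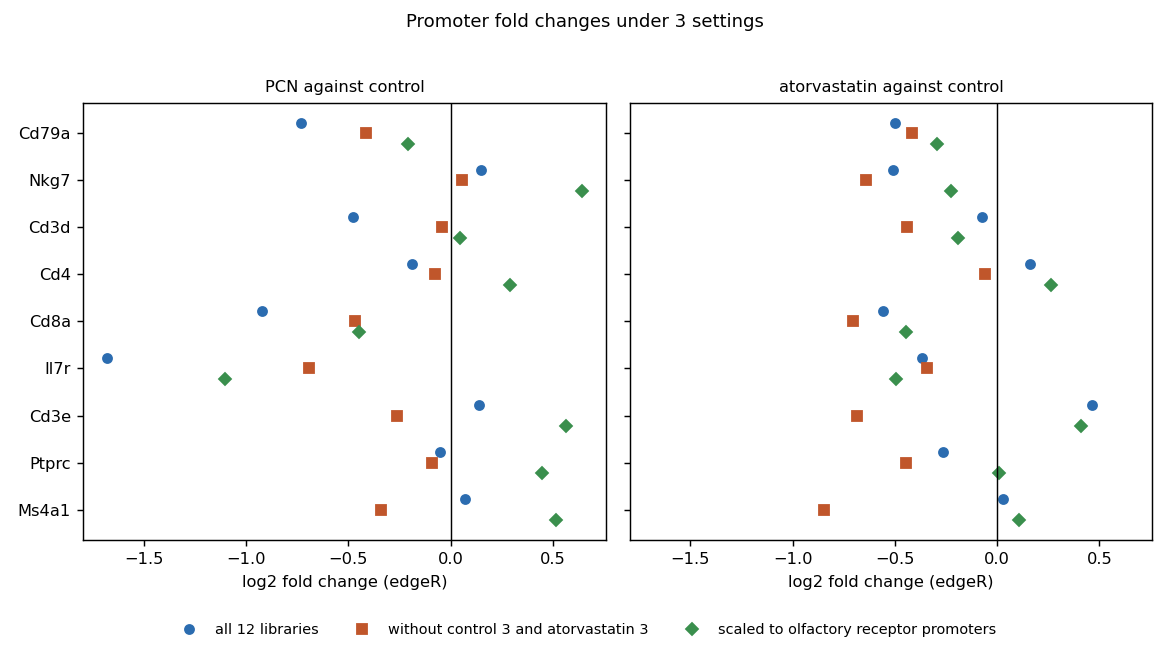
Log2 fold changes of the 9 marker promoters for both treatments against control under 3 settings: all 12 libraries with TMM, the same without control 3 and atorvastatin 3, and scaling to olfactory receptor promoters. Symbols of 1 gene are spread, and for atorvastatin the 9 orange squares lie below 0.

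Promoters of 56 other genes of lymphocytes and leukocytes were read in the same fits, and none was called. For PCN against control, 12 of 18 other T cell genes lay below 0, 9 of 14 other B cell genes, 10 of 12 other NK and cytotoxic genes and 9 of 12 other leukocyte genes. Without the 2 libraries these counts were 14, 10, 10 and 7. For atorvastatin the counts below 0 were 10, 4, 6 and 6 of the same lists, and without the 2 libraries 15, 11, 12 and 8. Of all promoters, 49% lay below 0 for PCN and 42.7% for atorvastatin, and 51.7% and 52.2% without the 2 libraries. The median of the B cell list for atorvastatin was 0.36 with all libraries and -0.21 without the 2. Lists of other liver cells leaned the same way with PCN: 8 of 12 Kupffer cell and macrophage genes, 9 of 12 stellate and fibroblast genes, 8 of 10 endothelial genes, 6 of 8 cholangiocyte genes, 6 of 8 neutrophil genes and 6 of 8 erythroid genes were below 0. Without the 2 libraries those counts were 7, 10, 9, 6, 6 and 6. For atorvastatin the counts below 0 of these lists were 8, 6, 4, 2, 4 and 3, and without the 2 libraries 8, 11, 7, 5, 6 and 6. Of the hepatocyte list 12 of 14 were above 0 with PCN in both settings, with a median of 0.34 and, without the 2 libraries, 0.17. No gene of these lists was at 0 in all libraries of a group. The summed hepatocyte CPM was 323 to 740 in control, 462 to 839 with atorvastatin and 573 to 795 with PCN, beside summed marker CPM of 26.4 to 82.1, 21.9 to 87.4 and 35.8 to 59.6. The part of these cell type lists in the marker values was not tested.

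Of the other T cell genes, Lck, the kinase that starts receptor signalling, was the one with an unadjusted p under 0.05. Lck stood at 17.0, 15.1, 25.9 and 19.5 CPM in control, at 13.9, 11.0, 9.76 and 11.6 CPM with atorvastatin and at 14.9, 8.21, 14.5 and 11.4 CPM with PCN, so the 4 control libraries lay above all 8 treated ones. Its log2 fold change was -0.64 ± 0.28 for PCN (adjusted p = 0.918) and -0.74 ± 0.28 for atorvastatin (adjusted p = 1.00), and -0.44 ± 0.24 and -0.49 ± 0.25 without the 2 libraries. Among all promoters, 1.52% had every PCN library below every control library and 0.444% every atorvastatin library. Zap70, the kinase that acts after Lck, lay the other way for PCN at 0.55 ± 0.32, and at 0.25 ± 0.19 without the 2 libraries. Cd8b1, the CD8 beta chain, stood at -1.002 ± 0.66 for PCN, and at -0.46 ± 0.50 without them.

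The other genes with the smallest p in their lists were these, each given for the comparison with control of smaller p. In the B cell list, Blnk, an adaptor after the B cell receptor, was at 0.62 ± 0.37 and the tetraspanin Cd37 at -0.69 ± 0.42 for atorvastatin, and the chemokine receptor Cxcr5 at -0.84 ± 0.52 for PCN. In the NK list, the chemokine Xcl1 was at -1.26 ± 0.69 and the receptor Klrb1c at -0.75 ± 0.62 for PCN. The chemokine Ccl5 was at 0.73 ± 0.63 for atorvastatin. In the leukocyte list, Laptm5, a lysosomal membrane protein, was at -0.84 ± 0.50 and the phosphatase Ptpn22 at -0.78 ± 0.50 for PCN, and the actin regulator Coro1a at -0.47 ± 0.33 for atorvastatin. Most of these were nearer to 0 without the 2 libraries: Blnk 0.15, Cd37 -0.25, Cxcr5 -0.38, Xcl1 -0.97, Klrb1c -0.49, Laptm5 -0.22 and Coro1a -0.28. Ccl5 turned to -0.50 ± 0.50. In that fit Ptpn22 had an unadjusted p under 0.05 in both comparisons, at -0.93 ± 0.40 and -1.15 ± 0.43, with adjusted p of 0.905 and 0.911.

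Across the 12 libraries the markers did not form a single profile. Of 36 pairs of markers, 29 had a Pearson correlation of log2(CPM + 1) above 0, with a median of 0.35. The highest was 0.97 for Cd3e and Ms4a1, both at 0 in control 3, and the next 0.91 for Cd8a and Cd79a, both highest there. The lowest was -0.16 for Cd3e and Cd79a. All pairs among Cd3d, Cd4, Cd8a, Cd79a and Il7r lay between 0.75 and 0.91, and each of these genes was highest in control 3 or atorvastatin 3. The promoters most like the markers' mean profile, by Pearson r over the 12 libraries, were Hoxd10 (0.97), Tmem236 (0.97), 1700094D03Rik (0.96), Casq1 (0.96) and Svopl (0.95). The median of this r was 0.59 over olfactory receptor promoters, 0.16 over all symbols and -0.54 over the hepatocyte list. The points share libraries, depth and background, and these values are descriptions.

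Most enhancer regions near the markers were at Cd4, but many of those overlapped. Of 406518 regions, 53 lay in or within 10 kb of a marker gene, at 20 separate places once overlapping regions were joined, and 33 passed the count filter. Cd4 had 31 regions with 26 tested, Cd79a 8 with 6 tested, and Nkg7 1, which lies inside the gene Etfb. Ms4a1 had 5, Ptprc 4, Cd3e 2 and Il7r 2, none tested, and Cd3d and Cd8a had none. Of the 20 separate places, Cd4 had 5, Ms4a1 5, Cd79a 3, Cd3e 2, Ptprc 2, Il7r 2 and Nkg7 1. Of all regions 406433 come in 12 widths, each with its highest mean count in a different library, so the library where a single region is highest is not read as a group difference. The 12 regions of width 182 near markers were all highest in atorvastatin 3, among them the top regions of Ptprc, Ms4a1 and Il7r, at 12.5, 12.9 and 13.7 CPM against medians of 0.231, 0.326 and 0 in the other libraries. The top Cd3e region, of width 192, was highest in control 3 at 4.86 CPM.

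Inside the Cd4 gene body (chr6:124864693-124888247, mm10), 12 overlapping regions span chr6:124881888-124882392 and 9 more span chr6:124883406-124883671. The highest of the 53 by mean, chr6:124881985-124882123, stood at 4.64, 7.00, 11.9 and 5.23 CPM in control, at 7.92, 9.48, 3.00 and 6.89 CPM with atorvastatin and at 5.40, 9.96, 7.13 and 16.3 CPM with PCN. Its groups overlap, with the extremes in PCN 4 and atorvastatin 3. Near Cd79a the highest region was chr7:24890535-24890663, in no annotated gene body, at a mean of 3.33 CPM, and near Nkg7 it was chr7:43446185-43446303 at 2.78 CPM.

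Of the 33 tested regions, 27 lay above 0 for PCN against control with a median log2 fold change of 0.40, and 25 for atorvastatin with a median of 0.16, while 38% and 41.6% of all enhancer regions lay below 0. For PCN against atorvastatin 23 lay above 0 with a median of 0.07, and 44.6% of all regions lay below 0. None was called (background 0%) and none had an unadjusted p under 0.05 (background 1.93%, 2.39% and 0.465%). Without the 2 libraries 34 regions were tested, with 22 above 0 and a median of 0.08 for PCN and 25 above 0 and a median of 0.20 for atorvastatin, while 48.7% and 49.1% of all regions lay below 0. In that fit 6 regions for PCN and 2 for atorvastatin had an unadjusted p under 0.05 (background 7.72% and 5.52%), all within the 12 overlapping regions in Cd4 and all above 0, with a smallest adjusted p of 0.44. Overlapping regions share reads and are not independent. The Cd4 promoter itself stood at -0.08 ± 0.49 for PCN in the same setting.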

How the data were processed

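The authors deposited ATAC-seq counts for 43511 promoters and 406518 enhancer regions. As deposited by the authors, the values are expected counts in steps of 0.5, not normalised, a unit read from the values themselves. They were rounded to whole numbers before fitting. Per the submitters' processing notes, the build was mm10 and the tools were HOMER 4.10, bedtools 2.30.0, STAR 2.7.9a and Trimmomatic, without roles. The counting tool, the promoter window and any filter are not given in the sources used here. Promoter rows without a symbol, 97 in all with 0.145% to 0.196% of counts, still name a transcript and were kept in the fits.

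Both tables were fitted in R 4.3.3 with edgeR 4.0.16 (TMM, filterByExpr with a minimum count of 10 and total of 15, quasi-likelihood test, group as only factor, all 12 libraries), which left 41908 promoters and 182115 enhancer regions. Benjamini-Hochberg adjustment covered all regions tested, with a threshold of 0.05. Each SE was derived from the fold change and the F statistic. The CPM printed are unrounded counts scaled by TMM. Correlations between pairs of markers used log2(CPM + 1), and the other correlations used log2 CPM with a prior count of 2. The fit was tested on simulated data.

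Named were the 9 markers, up to 3 genes of smallest p in each of 4 lists, the 5 promoters most like the markers' mean profile, and the highest enhancer region per marker. The markers and lists were chosen with earlier results of these data known. Alternatives were DESeq2 size factors, library totals, no filter, a minimum count of 30, DESeq2 1.42.0, a replicate block, fits of 2 groups, a threshold of 0.1 and each library left out in turn. Omission of control 3 and atorvastatin 3, scaling to olfactory receptor promoters, and both together were added after seeing the data. A pravastatin group is not analysed here. Intervals cover the spread between libraries or, for a count of 0, counting error only.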

Additional observations from a re-analysis of the deposited data

Results flagged for a closer look

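In groups of 4 libraries, 30 sets of values were searched for a single library far from its group by the ratio of its gap to the nearest value over the whole range, and chance marks about 1 in 20. Cd3e in atorvastatin 3 was far above the other 3 atorvastatin libraries, with a ratio of 0.851. Ptprc in atorvastatin 2 was far below the rest of its group, with a ratio of 0.869. The markers' mean CPM in PCN 1, 6.62 beside 3.98 to 4.38 in the other PCN libraries, had a ratio of 0.85. The olfactory receptor mean was also higher in PCN 1, at 3.55 CPM beside 2.06 to 2.10 CPM. Over each library's olfactory receptor median, Cd3e stood at 1.19, 2.38, 2.06 and 1.95 in atorvastatin replicates 1 to 4. Ptprc stood there at 1.19, 1.66, 0.722 and 2.27. The part of background in the flagged values was not tested.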

How the results depend on the processing

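The markers' counts were few, from 42 in control 4 to 774 in atorvastatin 3. Over 22 alternatives, none of the 594 marker values passed the threshold (smallest adjusted p 0.562, smallest unadjusted p 0.0235), and 59 changed sign. No promoter was called in the fit of all libraries (1572, 807 and 306 at an unadjusted p under 0.05 in edgeR for PCN against control, atorvastatin against control and PCN against atorvastatin), and no enhancer region in any setting run (3511, 4361 and 847). DESeq2 called 1 promoter for atorvastatin against control. Without control 3 and atorvastatin 3, 6 and 4 promoters were called for PCN and atorvastatin against control, and 1 and 1 when also scaled to olfactory receptor promoters, none of them a marker. Library totals moved the median of all promoters for PCN against control from 0.01 to -0.10. Of same-numbered pairs of libraries, 6 of 12 deviated together by a correlation over 0.1 across promoters (range -0.42 to 0.50) and 7 of 12 across enhancer regions (-0.015 to 0.154), against 7 and 0 of 36 differently numbered pairs. The main fit did not take the numbers as pairs, and what same-numbered libraries share was not tested. With the replicate block 0 promoters and 0 enhancer regions were called, and the markers' medians were -0.17, -0.23 and -0.12.

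The cause of the following changes was not tested. Without control 3 and atorvastatin 3, these values turned: for PCN against control Cd3e -0.26, Ms4a1 -0.34 and the region near Cd79a -0.065; for atorvastatin against control Cd3e -0.68, Cd4 -0.060, Ms4a1 -0.85, Ccl5 -0.50 and the region in Cd4 0.52; for PCN against atorvastatin Cd3e 0.42, Cd3d 0.40, Cd8a 0.24, Cd79a 0.0042 and the markers' median 0.36. With scaling to olfactory receptor promoters they were, for PCN against control, Cd3d 0.044, Cd4 0.29 and Ptprc 0.45, for atorvastatin against control Ptprc 0.011 and Coro1a 0.087, and for PCN against atorvastatin Cd3e 0.15, Cd3d 0.24, Cd4 0.025 and Cd79a 0.084, and the markers' medians were 0.29, -0.19 and 0.15. With both, the medians were 0.15, 0.096 and 0.16, and the values that turned were, for PCN against control, Cd3d 0.41, Cd4 0.35, Cd79a 0.040, Ptprc 0.39, Cxcr5 0.031 and Laptm5 0.26. For atorvastatin against control they were Cd3e -0.0098, Cd3d 0.096, Cd79a 0.16, Ms4a1 -0.20, Ptprc 0.21, Il7r 0.14, Lck 0.066, Cd37 0.39 and Coro1a 0.55, and for PCN against atorvastatin Cd3e 0.16 and Cd3d 0.31. With library totals Ms4a1 stood at -0.039 for PCN against control and -0.068 for PCN against atorvastatin. With no filter the region in Cd4 stood at 0.11 for atorvastatin.

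Leaving out each library in turn gave, for PCN against control, ranges of -0.24 to 0.55 for Cd3e, -0.31 to 0.50 for Ms4a1, -0.24 to 0.24 for Ptprc and -0.083 to 0.51 for Nkg7. Il7r ranged from -2.01 to -0.69, the latter without control 3. For atorvastatin against control the ranges were -0.29 to 0.87 for Cd3e, -0.86 to 0.37 for Cd3d, -0.15 to 0.39 for Cd4, -0.45 to 0.45 for Ms4a1, -1.28 to 0.62 for Il7r and -0.21 to 1.46 for Ccl5. For the regions near Cd4, Cd79a and Nkg7 they were -0.30 to 0.29, -0.60 to 0.40 and -0.83 to 0.049. For PCN against atorvastatin they were -0.58 to 0.41 for Cd3e, -0.74 to 0.39 for Cd3d, -0.79 to 0.23 for Cd8a, -0.17 to 0.50 for Ms4a1, -0.024 to 0.51 for Ptprc and -0.58 to 0.34 for the markers' median, the last turning without atorvastatin 3.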
